A study of Mus musculus with 32 samples.

Results

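The genes described here mark B cells and the lymphoid aggregates that form in chronically inflamed tissue. They were chosen by name, as 9 mouse symbols looked up in the table of array values, and 7 of the 9 had a row, out of 15780 named genes measured. The 7 were *Ms4a1* (Entrez 12482), *Cd79b* (15985), *Cxcr5* (12145), *Cxcl13* (55985), *Ltb* (16994), *Glycam1* (14663) and *Ccr7* (12775). *Cd79a* and *Ccl19* were not analysed here. Whole-kidney RNA from lupus-prone mice was hybridized to Affymetrix arrays, 1 kidney per array, in 5 groups with 32 kidneys in all. The values are log2 expression values, on which a difference of 1 is a doubling, and they rank kidneys for 1 gene but do not compare the level of different genes.

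The 30-week group held 7 kidneys of untreated, non-proteinuric NZB/W mice, a cross that develops lupus nephritis with age. The other groups were in remission after treatment, and their ages are not given in the labels. In NZB/W mice, 8 kidneys were from early remission and 6 from late remission after triple therapy (late triple therapy). Triple therapy is CTX (cyclophosphamide) with CTLA4Ig, a blocker of T cell costimulation, and anti-CD154, an antibody to the CD40 ligand. A further 5 NZB/W kidneys were from late remission after Ad-TACI-Ig, an adenovirus that encodes a soluble receptor that binds BAFF and APRIL, on which B cells and plasma cells depend, given with CTLA4Ig. The last 6 kidneys were from NZM2410 mice, a related inbred lupus strain, in remission after Ad-BAFF-R-Ig, which encodes a soluble receptor for BAFF. Kidneys with active nephritis are not analysed here.

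B cells are recognised by CD20, the product of *Ms4a1*, and by the Igα and Igβ chains of the antigen receptor, of which *Cd79b* encodes the second. CXCR5 on B cells and follicular helper T cells follows CXCL13, which stromal and follicular dendritic cells release. The paper on these data also counts *Cxcl13* among genes expressed by macrophages and dendritic cells. CCR7 on naive lymphocytes and mature dendritic cells follows CCL19 and CCL21 into the T cell zone. Lymphotoxin β (*Ltb*), held on the lymphocyte surface with lymphotoxin α, signals to stroma through the lymphotoxin β receptor and noncanonical NF-κB and keeps lymphoid chemokines switched on. High endothelial venules let lymphocytes enter from the blood and make GlyCAM-1, a mucin-like ligand of L-selectin that the lactating mammary gland also makes. In chronic inflammation such cells and vessels can assemble in tissue outside lymph nodes, and the kidney of the old NZB/W mouse is a known example.

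The chemokine, lymphotoxin and high endothelial genes, which different cells express, are among those whose levels are set against the B cell genes below. Their upstream sequences are shown because only these were available. They are the 250 bases before the annotated start in RefSeq (GRCm38.p6), 5′ to 3′ on the gene's strand, and the other 4 genes had no entry in the table used. Capitals mark matches, on either strand, to the letters ATGCAAAT (the octamer of B cell promoters), GAGGAA (the core of PU.1 sites) and TATAAA (the TATA box), and to the NF-κB consensus. The searched strings do not overlap in these windows.
Cxcl13, chr5:95956689-95956938, plus strand: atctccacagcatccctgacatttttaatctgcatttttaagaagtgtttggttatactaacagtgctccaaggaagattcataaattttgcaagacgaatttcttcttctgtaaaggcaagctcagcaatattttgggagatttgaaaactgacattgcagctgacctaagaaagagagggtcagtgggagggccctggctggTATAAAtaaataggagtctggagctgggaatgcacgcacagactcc
Glycam1, chr15:103565082-103565331, minus strand: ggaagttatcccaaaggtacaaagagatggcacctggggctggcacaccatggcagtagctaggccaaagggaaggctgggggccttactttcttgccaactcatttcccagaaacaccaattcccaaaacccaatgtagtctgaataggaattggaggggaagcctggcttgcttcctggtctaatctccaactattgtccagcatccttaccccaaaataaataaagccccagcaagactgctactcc
Ltb, chr17:35194257-35194506, plus strand: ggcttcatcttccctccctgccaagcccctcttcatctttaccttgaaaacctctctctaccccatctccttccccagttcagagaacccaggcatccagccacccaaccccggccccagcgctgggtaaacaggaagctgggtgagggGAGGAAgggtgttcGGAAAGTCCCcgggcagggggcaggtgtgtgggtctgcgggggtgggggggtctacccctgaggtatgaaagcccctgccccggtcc
In *Cxcl13* the TATA match began 46 bases before the start (position -46), and 12.4% of 32851 promoters of the same length held that string. *Ltb* held GAGGAA at -101, found in 23.3% of promoters, and an NF-κB match on the opposite strand at -87, found in 7.25%. The octamer, found in 1.60% of promoters, matched in none of the 3 windows, and *Glycam1* held no match to any of the strings. These are matches of letters and not measured binding.

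Before the genes are taken in turn, several features of the arrays have to be given. In 30-week replicate 2 all 7 genes were at the highest level of their group, and 6 of them lay apart from the other 6 kidneys by Dixon's test. For each of the 7 genes, late triple therapy kidneys averaged within 0.00884 of what the untreated and TACI-Ig kidneys, 12 together, averaged. Over all genes this distance had an SD of 0.0045, so that group is not tested against those 2 here. Its means are therefore close to the pooled ones. Its place between those 2 groups in an order of means below is not a result about that group. Array SDs were 2.11 to 2.17 in NZM2410 kidneys and 1.90 to 2.03 in NZB/W kidneys. The kidney markers were bright in all groups (group means of the list of 9 genes from 12.01 to 12.52), as whole kidney should be. The mean of 7 adrenal cortex genes differed widely between kidneys. It ran from 5.46 to 9.21 at 30 weeks, 5.16 to 8.76 in early remission and 6.79 to 7.20 in late triple therapy. After TACI-Ig it ran from 5.37 to 5.62 and in NZM2410 from 5.25 to 5.53.

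*Ms4a1*, which encodes CD20, had similar means in the NZB/W groups and a much wider spread in some of them than in others. In the 30-week kidneys the level ranged from 4.96 to 7.81 with a median of 5.58, and replicate 2 alone was above 6.05. In early remission the 8 kidneys ranged only from 5.35 to 6.19 (median 5.59). The 5 TACI-Ig kidneys measured 6.26, 4.72, 6.73, 4.84 and 6.59 in the order of their numbers, so 3 kidneys were high, 2 were low and none was near the mean of 5.83. After late triple therapy the 6 kidneys ranged from 4.01 in replicate 11 to 6.80 in replicate 7 (median 5.93), and replicate 11 held the lowest level of all 32 kidneys. The 6 NZM2410 kidneys ranged from 4.32 to 4.85 (median 4.38), with replicate 6 apart from the others, and 3 of the 26 NZB/W kidneys lay below the highest of them. The order of the means was TACI-Ig, late triple therapy, 30 weeks, early remission and NZM2410, with the limit on the late triple therapy mean given above. Each pair of neighbours overlapped except the last, where early remission and NZM2410 did not.

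*Cd79b*, the antigen receptor chain, followed the same kidneys. The 30-week kidneys ranged from 6.05 to 8.37 (median 6.26), with replicate 2 at the top, and the early-remission kidneys from 6.03 to 7.11 (median 6.42). The TACI-Ig kidneys measured 7.44, 5.73, 8.03, 5.47 and 7.14, again with replicates 1, 3 and 5 above and replicates 2 and 4 below the mean of 6.76. Late triple therapy ranged from 5.21 in replicate 11 to 7.54 in replicate 7 (median 6.65), and NZM2410 from 5.53 to 6.08 (median 5.76). All groups overlapped their neighbours in the order of the means, and 5 of 26 NZB/W kidneys lay below the highest NZM2410 kidney.

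**Figure D1:**
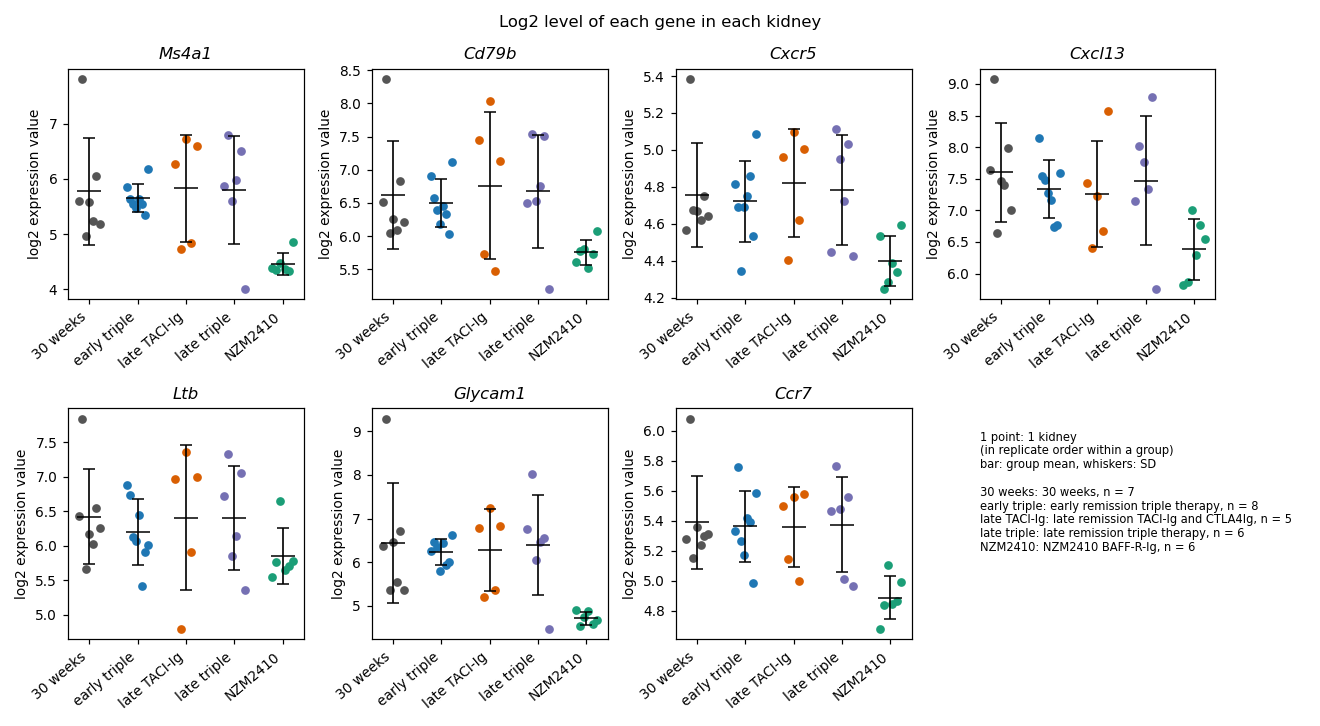
Log2 expression value (vertical axes) of the 7 genes in each of the 32 kidneys, by group (horizontal axes); each point is 1 kidney, the bar is the group mean and the whiskers are the SD. The 30-week group has 1 kidney far above the rest in most panels, the TACI-Ig kidneys fall into 3 high and 2 low ones in most panels, and the NZM2410 group has the lowest mean in all 7 panels, although in 5 of them the lowest single kidney is an NZB/W kidney.

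*Cxcr5*, the receptor for CXCL13, was dimmer and moved over a smaller range. Its group means were 4.76 ± 0.28 (SD, n = 7) at 30 weeks, 4.72 ± 0.22 (n = 8) in early remission, 4.82 ± 0.29 (n = 5) after TACI-Ig, 4.78 ± 0.30 (n = 6) in late triple therapy and 4.40 ± 0.14 (n = 6) in NZM2410. The 30-week range was 4.56 to 5.38 with a median of 4.67, and replicate 2 at 5.38 was the highest of all kidneys. The TACI-Ig kidneys measured 4.96, 4.41, 5.10, 4.62 and 5.01, the same pattern of 3 higher and 2 lower kidneys as in the B cell genes.

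*Ccr7*, the receptor that guides lymphocytes to CCL19 and CCL21, also had a narrow range. Its means were 5.39 ± 0.31 at 30 weeks, 5.36 ± 0.24 in early remission, 5.36 ± 0.27 after TACI-Ig, 5.38 ± 0.32 in late triple therapy and 4.89 ± 0.14 in NZM2410. The TACI-Ig kidneys measured 5.50, 5.15, 5.56, 4.996 and 5.58. The highest kidney was 30-week replicate 2 at 6.08, and the next in its group was at 5.36.

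*Cxcl13*, the chemokine that draws B cells into follicles, had its highest mean at 30 weeks and its lowest in NZM2410. The 30-week mean includes replicate 2 at 9.08, and the highest median was that of late triple therapy. The 30-week kidneys ranged from 6.64 to 9.08 (median 7.46), early remission from 6.74 to 8.14 (median 7.38), and late triple therapy from 5.76 in replicate 11 to 8.80 in replicate 10 (median 7.55). The TACI-Ig kidneys measured 7.43, 6.41, 7.23, 6.67 and 8.57, so replicate 3, the highest kidney of that group for both B cell genes, was at the group mean of 7.26 for the chemokine. The NZM2410 kidneys ranged from 5.82 to 7.00 (median 6.42), and 6 of 26 NZB/W kidneys lay below the highest of them. This was the only one of the 7 genes in which 30-week replicate 2 did not pass Dixon's test, since replicate 6 reached 7.99.

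*Ltb*, the membrane anchor of lymphotoxin, ranged from 5.67 to 7.84 at 30 weeks (median 6.25), from 5.41 to 6.88 in early remission (median 6.10) and from 5.36 to 7.33 in late triple therapy (median 6.43). The TACI-Ig kidneys measured 6.97, 4.80, 7.36, 5.91 and 6.99, and replicate 2 was the lowest of all 32 kidneys. The NZM2410 kidneys ranged from 5.54 to 6.66 (median 5.73), where replicate 3 was apart from the others. For *Ltb*, 17 of 26 NZB/W kidneys were below the highest NZM2410 kidney, the most of the 7 genes, beside 6 for *Cxcr5* and 4 for *Ccr7*. That count rests on NZM2410 replicate 3 at 6.66. The next highest NZM2410 kidney was at 5.78, below the median of each NZB/W group. In *Cxcr5*, *Ccr7*, *Cxcl13* and *Ltb* all neighbours in the order of the group means overlapped.

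*Glycam1*, the high endothelial mucin, had the widest span of the 7 genes. At 30 weeks the kidneys measured 6.38, 9.28, 5.37, 6.47, 5.55, 6.70 and 5.35, so replicate 2 was far above the next, replicate 6. Early remission ranged from 5.80 to 6.61 (median 6.30). The TACI-Ig kidneys measured 6.79, 5.20, 7.24, 5.36 and 6.84, and the late triple therapy kidneys 6.77, 8.02, 6.04, 6.46, 6.55 and 4.48 in the order of replicates 6 to 11. The NZM2410 kidneys ranged from 4.53 to 4.90 (median 4.70), and 1 NZB/W kidney, late triple therapy replicate 11, lay below the highest of them. In the order of the means, NZM2410 did not overlap its neighbour, early remission, and the NZB/W groups overlapped one another.

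The spread of these genes between kidneys of 1 group was large for the array. Over the 26 NZB/W kidneys, the SD within groups was 0.9998 for *Glycam1*, 0.82 for *Ms4a1*, 0.78 for *Cd79b*, 0.77 for *Cxcl13* and 0.73 for *Ltb*, and the median of all genes was 0.14. For these 5 genes more than 99% of all genes had a smaller SD (from 99.5% for *Ltb* to 99.8% for *Glycam1*). *Cxcr5* and *Ccr7* had SDs of 0.27 and 0.28, with 90.5% and 91.8% of genes below them. In a whole-kidney sample a lower level can come from fewer cells of a type or from less RNA in each, and the 2 cannot be told apart.

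Whether the B cell, chemokine and high endothelial genes varied together was measured over the 26 NZB/W kidneys after the mean of each group was removed, so that differences between groups do not enter. All 21 pairs of the 7 genes were positively correlated, with Pearson's r from 0.67 to 0.97 and a median of 0.82. The p-values came from 100000 permutations of kidneys within groups (two-sided) and were adjusted over all 110453 correlations of the 7 genes with every other gene. All 21 pairs passed an adjusted p of 0.05, as did 4.04% of all those correlations in the positive direction. The closest pair was *Ms4a1* and *Cd79b* (r = 0.97, Spearman's rho = 0.96, permutation p = 1e-05 for both, the smallest that 100000 permutations can give, and adjusted p = 0.00203). *Ms4a1* and *Glycam1* were nearly as close (r = 0.96, rho = 0.94, permutation p = 1e-05 for both, adjusted p = 0.00203). *Cd79b* and *Glycam1* had an r of 0.90 (rho 0.88, permutation p = 1e-05 for both, adjusted p = 0.00203).

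The chemokine axis was looser than the pairs above. *Cxcr5* and its ligand gene *Cxcl13* had an r of 0.71 (permutation p = 0.0003, rho = 0.70 with permutation p = 0.00037, adjusted p = 0.0132). *Cd79b* and *Cxcr5* had an r of 0.85 (permutation p = 2e-05, rho = 0.82 with permutation p = 4e-05, adjusted p = 0.00279). *Ltb*, which lies upstream of *Cxcl13* in the lymphotoxin pathway, had an r of 0.78 with it (permutation p = 3e-05, rho = 0.76 with permutation p = 3e-05, adjusted p = 0.0035) and of 0.86 with *Cd79b* (permutation p = 2e-05, rho = 0.85 with permutation p = 1e-05, adjusted p = 0.00279). *Ccr7* and *Ltb* had an r of 0.75 (permutation p = 0.00026, rho = 0.72 with permutation p = 0.00053, adjusted p = 0.0123). The loosest pair was *Cxcr5* and *Ltb* (r = 0.67 with permutation p = 0.0019, rho = 0.59 with permutation p = 0.0067, adjusted p = 0.0394). Whether these r values differ from one another was not tested.

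The correlations were computed again without the kidneys farthest out, and fewer pairs then passed. Without 30-week replicate 2 all 21 pairs stayed above 0 (r from 0.57 to 0.95), and 14 of 21 passed the adjusted p. The 7 that did not pass were the pairs of *Cxcr5* with *Cxcl13*, *Ltb*, *Glycam1* and *Ccr7*, those of *Cxcl13* with *Glycam1* and *Ccr7*, and *Ltb* with *Ccr7*. With the 2 kidneys farthest from the median of the first gene left out, r ranged from 0.55 to 0.95 and 7 of 21 pairs passed. *Ms4a1* with *Cd79b* was then at 0.95, *Ms4a1* with *Glycam1* at 0.90, *Cd79b* with *Glycam1* at 0.86, *Cd79b* with *Cxcr5* at 0.77, *Cd79b* with *Ltb* at 0.79, *Ltb* with *Cxcl13* at 0.68, *Ccr7* with *Ltb* at 0.69, *Cxcr5* with *Ltb* at 0.64 and *Cxcr5* with *Cxcl13* at 0.64. The labels name no array batch, so no within-batch value could be had.

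**Figure D2:**
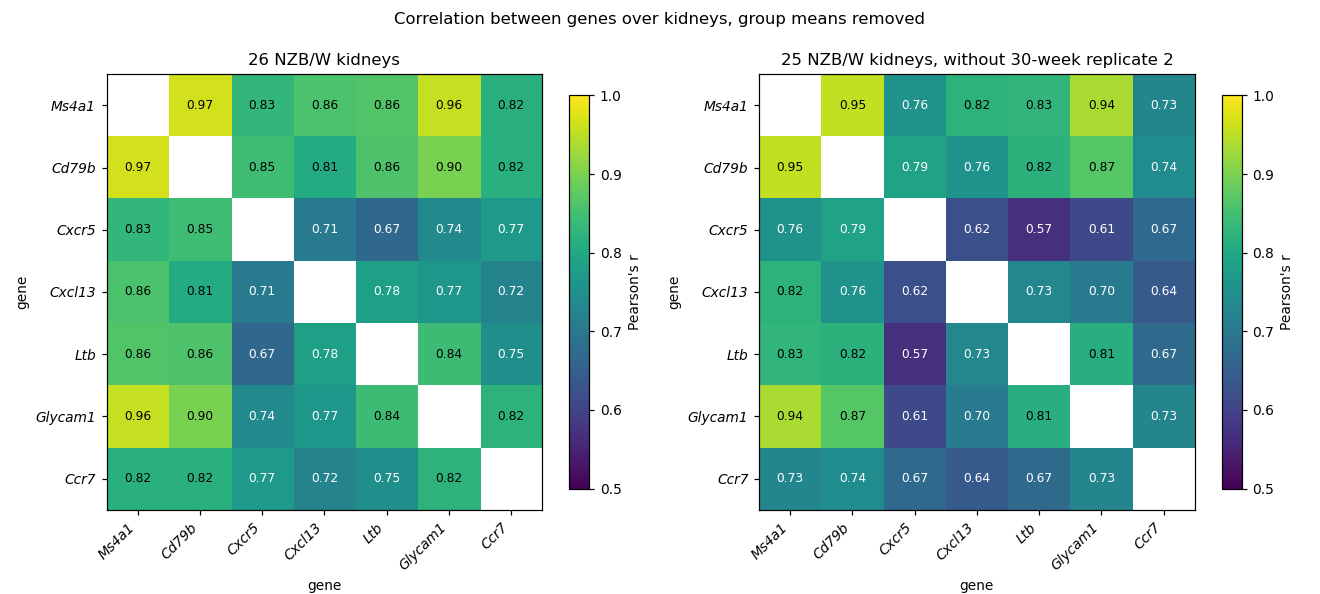
Pearson's r between the 7 genes (both axes, colour scale from 0.5 to 1) over the 26 NZB/W kidneys after removal of group means, and over 25 without 30-week replicate 2. The pairs among *Ms4a1*, *Cd79b* and *Glycam1* are at 0.90 to 0.97 on the left and at 0.87 to 0.95 on the right, and pairs with *Cxcr5* reach down to 0.57.

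Within single groups of 6 to 8 kidneys the genes did not vary together to the same degree in each. At 30 weeks r ranged from 0.83 to 0.99, but rho from 0.39 to 1.0, in a group where replicate 2 stood apart in 6 of the 7 genes. In late triple therapy r ranged from 0.59 to 0.98 and rho from 0.49 to 0.94. In early remission r ranged from -0.04 to 0.97, and *Ms4a1* with *Cd79b* was at 0.97 (rho 0.95, exact permutation p = 9.9e-05 for r and 0.0011 for rho, n = 8), while *Cxcr5* with *Ltb* was at -0.04. In the 6 NZM2410 kidneys 13 of 21 pairs were above 0, with r from -0.56 to 0.84. No pair passed the adjusted p within 1 group, which groups of this size could hardly reach when adjusted over 110453 correlations, and differences in r between groups were not tested. The 5 TACI-Ig kidneys are too few for a correlation of their own.

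The same kidneys were high or low across the genes. In 30-week replicate 2 the 7 genes lay from 0.63 (*Cxcr5*) to 2.84 (*Glycam1*) above the group mean. In late triple therapy, replicates 7 and 10 were above the group mean in all 7 genes, and replicate 11 was the lowest of its group in all 7, with deviations of -1.91 in *Glycam1* and -1.78 in *Ms4a1*. TACI-Ig replicates 1 and 5 were above their group mean in 7 of 7 genes and replicate 3 in 6 of 7, and replicates 2 and 4 were below it in all 7. In early remission replicates 1 and 8 were above the mean in 6 of 7 genes, and replicates 4 and 7 were below it in all 7.

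**Figure D3:**
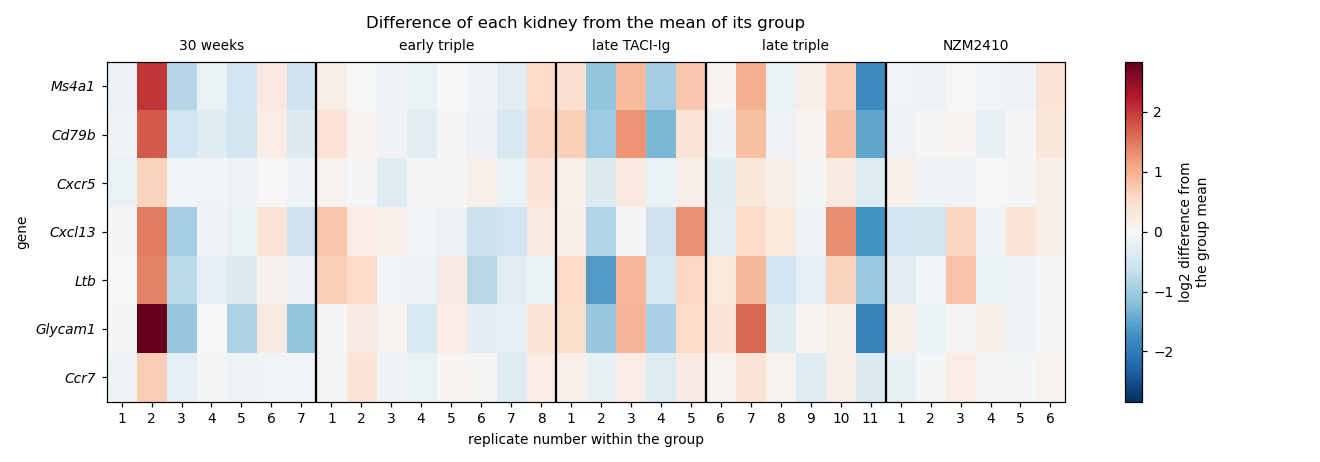
Log2 difference of each kidney (columns, numbered by replicate) from the mean of its own group for the 7 genes (rows), with red above and blue below the group mean. The columns of 30-week replicate 2 (up to 2.84 above) and late triple therapy replicate 11 (down to -1.91) are of 1 colour in all 7 genes, and the TACI-Ig columns alternate.

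The genes most like each member, by r over the same 26 kidneys among all 15779 others, are given as a description. For *Ms4a1* they were *H2-Ob* (0.98), *Cd79b* (0.97) and *Fcrl1* (0.96), the first a chain of the class II chaperone H2-O of B cells and the last a B cell Fc receptor-like gene. For *Cd79b* they were *Spib* (0.97), a B lineage Ets factor, *Ms4a1* (0.97) and *H2-Ob* (0.95). For *Glycam1* they were *Ms4a1* (0.96), *H2-Ob* (0.95) and *P2ry10* (0.92), so its 3 closest genes held no other high endothelial gene. *Cxcr5* was nearest to *H2-Oa* (0.91), *Slfn2* (0.89) and *Bub1b* (0.89). *Ccr7* was nearest to *Btla* (0.91), a lymphocyte inhibitory receptor, *Limd2* (0.88) and *Cd2* (0.88), a T cell adhesion receptor. *Ltb* was nearest to *Cd3d* (0.94), a chain of the T cell receptor complex, *Laptm5* (0.93) and *Sting1* (0.93). *Cxcl13* was nearest to *Sla* (0.93), *Cd53* (0.91), a leukocyte tetraspanin, and *Ly86* (0.91), which pairs with the B cell and macrophage receptor RP105. For all 7 the median r to all genes was within 0.03 of 0, and the 99th percentile was between 0.75 and 0.85. Without 30-week replicate 2 the first-placed gene was the same for 6 of the 7, and *Ccr7* was then nearest to *Zap70* (0.87).

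Other gene lists were set against the 7 genes in the same way, with the adjusted p over all 110453 correlations. Of 17 other B cell genes, 12 passed with *Ms4a1* (median r 0.84) and 13 with *Cd79b* (0.85). *Glycam1*, for its part, passed with 12 of these 17 (median r 0.81), among them *Tnfrsf13c* (0.91), the BAFF receptor, *Blk* (0.85), a B cell kinase, *Pou2af1* (0.85), a B cell coactivator, and *Fcmr* (0.82), the IgM Fc receptor. Those that did not pass with *Glycam1* were *Ebf1* (0.03), *Pax5* (0.37), *Fcer2a* (0.56), *Fcrla* (0.57) and *Cr2* (0.67). Of 12 T cell genes 10 or 11 passed with each of the 7 (median r from 0.74 to 0.82). Of 9 plasma cell genes 5 to 7 passed, and of 10 macrophage genes 4 with *Cxcr5* and up to 9 with *Cxcl13*. None of the 6 mammary gland genes passed with *Glycam1* (r from -0.38 to 0.18), although that mucin is also a milk protein. Without 30-week replicate 2 the highest of these was *Wap*, a whey protein gene named after its values were seen, at 0.52, up from 0.10. The mammary gland genes varied little, with SDs within groups from 0.07 to 0.20. A change in them that follows *Glycam1* may therefore not have been detectable. None of the 5 adipose or 7 adrenal cortex genes passed with any of the 7. Of 9 kidney markers, 1 to 3 passed in the negative direction with each of the 7 but *Cxcr5*, with which none did, and none passed in the positive direction. Those named here were picked after their values were seen. *Lrp2*, the proximal tubule receptor megalin, passed with all 6, with r from -0.71 (*Ccr7*, permutation adjusted p = 0.0035) to -0.51 (*Glycam1*, permutation adjusted p = 0.0308). *Slc12a1*, the sodium transporter of the thick ascending limb, passed with *Ms4a1*, *Cd79b*, *Glycam1* and *Ccr7* (r from -0.65 to -0.55).

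Most other genes of high endothelium did not pass with *Glycam1*. Of 12 high endothelial and homing genes 2 passed with it in the positive direction and 1 in the negative, with a median r of 0.25. *Chst4*, which sulfates the L-selectin ligands, had an r of 0.20 (adjusted p = 0.648), *Fut7*, which fucosylates them, 0.24 (adjusted p = 0.523), and *Selp*, P-selectin, 0.31 (adjusted p = 0.403), all by permutation over 26 kidneys. The 3 that passed were named after their values were seen. They were *Icam1* (0.75, adjusted p = 0.0265) and *Vcam1* (0.66, adjusted p = 0.0211), adhesion molecules of activated endothelium, and *Emcn* (-0.64, adjusted p = 0.03), an endothelial sialomucin, by the same permutation test. Without 30-week replicate 2 their r was 0.55, 0.56 and -0.58. *Madcam1*, the mucosal addressin, also named after its values were seen, had an r of 0.26 (adjusted p = 0.516). The enzyme genes were dim and nearly flat, *Chst4* from 4.86 to 5.17 and *Fut7* from 5.86 to 6.24 over 26 kidneys with SDs within groups of 0.09 for both, so a change that follows *Glycam1* may not have been detectable for them. Of 10 genes of lymphoid stroma and follicular dendritic cells, 1 passed with *Cxcl13* (median r 0.31), and of 11 genes of the lymphotoxin and noncanonical NF-κB pathway none passed with *Ltb* (median r 0.46). The median SD within groups was 0.19 in the stromal list and 0.17 in the lymphotoxin list, beside 0.14 for all genes. Changes that follow *Cxcl13* or *Ltb* may thus not have been detectable for some of these genes.

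**Figure D4:**
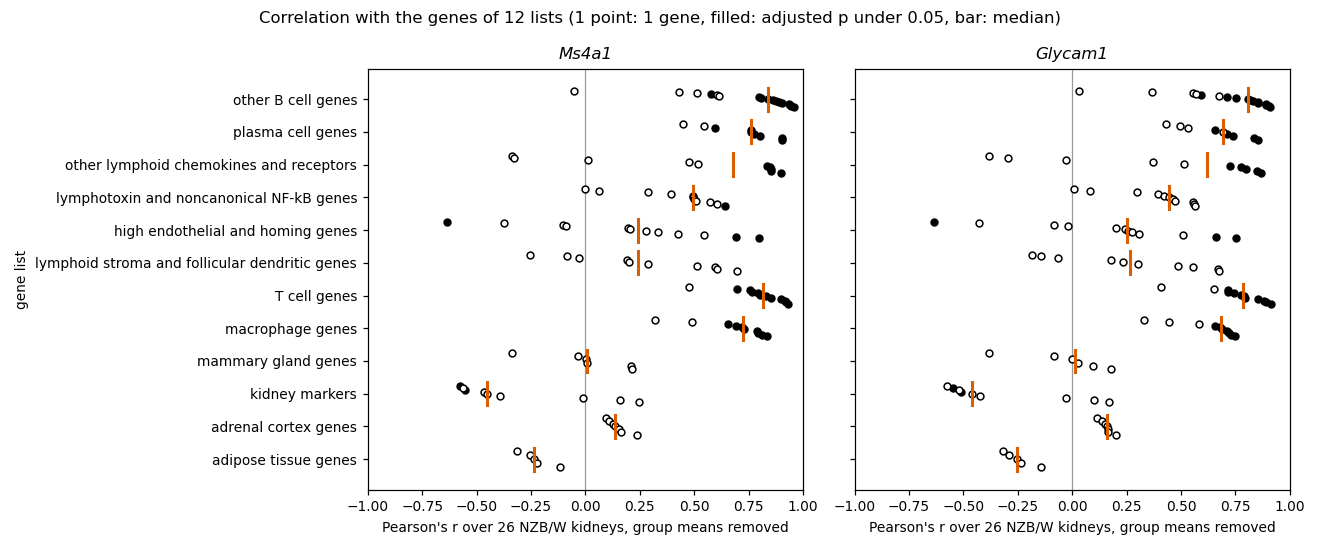
Pearson's r of *Ms4a1* (left) and *Glycam1* (right) with each gene of 12 lists over the 26 NZB/W kidneys after removal of group means; each point is 1 gene, filled where the permutation adjusted p was under 0.05, and the bar is the median of the list. Both genes sit at medians of 0.78 to 0.84 with the other B cell and the T cell genes, at about 0.24 to 0.25 with the high endothelial genes and near 0 with the mammary gland genes.

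The values of other cell types moved with these genes in the same kidneys. In 30-week replicate 2, 14 of 17 other B cell genes, 11 of 12 T cell genes, 10 of 10 macrophage genes and 8 of 9 plasma cell genes were above all 6 other kidneys of the group, while of 9 kidney markers 5 were below and 3 above all of them. The mean of the macrophage list was 9.91 there and 8.06 to 8.81 in the others, and the mean of the kidney markers was 11.8 against 11.9 to 12.2. In late triple therapy replicate 11 the means of the other B cell list (5.89, others 6.32 to 6.89), the T cell list (5.27, others 5.50 to 6.27) and the plasma cell list (6.97, others 7.48 to 8.21) were likewise the lowest. The part of these cell types in the correlations above was not tested.

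Differences between groups were tested with limma over all 15780 genes with Benjamini-Hochberg adjustment, and a gene was called at an adjusted p under 0.05. The 4 comparisons share groups, namely the 30-week, early-remission and TACI-Ig kidneys, so they are not independent of each other. The first asked whether the level in early remission after triple therapy differed from that of untreated mice before proteinuria. No gene was called (0 of 15780, 0.0%, and before adjustment p was under 0.05 for 855 genes above and 531 below 0), and none of the 7 genes reached an unadjusted p of 0.05. The differences ran from -0.26 (*Cxcl13*, 95% interval -0.87 to 0.34, limma adjusted p = 0.825) to -0.03 (*Ccr7*, -0.30 to 0.25, limma adjusted p = 0.972), with *Ms4a1* at -0.12 (-0.78 to 0.54) and *Glycam1* at -0.21 (-1.13 to 0.71). The median of the 7 was -0.12 and that of all genes 0.02. The signs of 6 of the 7 rest on 1 kidney. Without 30-week replicate 2, *Ms4a1* was at 0.22, *Cd79b* at 0.17, *Cxcr5* at 0.07, *Ltb* at 0.01, *Glycam1* at 0.26 and *Ccr7* at 0.09, and *Cxcl13* stayed below 0 at -0.02, none of them called. In the labels 30-week replicate 6 and early-remission replicate 1 carry the same mouse code, and without both of them 0 genes were called.

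The same question for late remission after TACI-Ig and CTLA4Ig, a treatment aimed at B cell survival factors, gave no called gene either (0 of 15780, 0.0%, and before adjustment p was under 0.05 for 1682 genes above and 1526 below 0). None of the 7 genes reached an unadjusted p of 0.05. *Ms4a1* differed by 0.06 (-0.97 to 1.08, limma adjusted p = 0.949), *Cd79b* by 0.14 (-0.86 to 1.15, limma adjusted p = 0.866), *Cxcl13* by -0.34 (-1.20 to 0.52, limma adjusted p = 0.614) and *Glycam1* by -0.16 (-1.45 to 1.13, limma adjusted p = 0.886). The interval of *Glycam1* reaches beyond 1 log2 unit on either side. Those of *Ms4a1* and *Cd79b* reach beyond 1 above 0, and that of *Cxcl13* beyond 1 below 0. Differences of that size could therefore not be told from none with these kidneys. Without TACI-Ig replicate 2, 1309 genes were called in this comparison and none of the 7 was (*Ms4a1* 0.34, limma adjusted p = 0.649, *Ltb* 0.39, limma adjusted p = 0.451).

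Late against early remission after triple therapy called 11 of 15780 genes (0.0697%), all lower and none of the 7. The 7 differences ran from 0.01 (*Ccr7*, -0.27 to 0.29) to 0.21 (*Ltb*, -0.39 to 0.81), all with a limma adjusted p of 0.9998, and their median was 0.14 beside -0.01 for all genes. The late group is the one with means close to those of the pool of untreated and TACI-Ig kidneys, and the part of that in these differences was not tested.

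NZM2410 kidneys after BAFF-R-Ig were compared with NZB/W kidneys after TACI-Ig and CTLA4Ig, and 6 of the 7 genes were lower in NZM2410. Strain and treatment differ together, and their parts cannot be told apart. Of 15780 genes 59.5% were called, 28.6% higher and 30.9% lower. *Glycam1* was lower by the most, with a difference of -1.57 (95% interval -2.26 to -0.87, limma adjusted p = 0.00102), from 6.28 ± 0.94 (SD, n = 5) to 4.72 ± 0.15 (n = 6). *Ms4a1* differed by -1.37 (-2.10 to -0.64, limma adjusted p = 0.00344), from 5.83 ± 0.97 to 4.46 ± 0.20. *Cd79b* differed by -1.01 (-1.83 to -0.18, limma adjusted p = 0.0367) and *Cxcl13* by -0.88 (-1.61 to -0.15, limma adjusted p = 0.0379). *Ccr7* differed by -0.47 (-0.72 to -0.22, limma adjusted p = 0.0034) and *Cxcr5* by -0.42 (-0.68 to -0.16, limma adjusted p = 0.00886). *Ltb* was not called (-0.56, -1.39 to 0.27, limma adjusted p = 0.229). The median of the 7 was -0.88 and that of all genes 0.00.

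The calls were not equally firm. *Glycam1* and *Ms4a1* were called in all 11 fits that left out 1 kidney, as were *Ccr7* and *Cxcr5*. *Cd79b* was called in 4 of 11 and lost the call without TACI-Ig replicate 1, 3 or 5 or NZM2410 replicate 1, 2, 4 or 5 (limma adjusted p from 0.0549 to 0.0987, differences from -1.33 to -0.69 over the 11 fits). *Cxcl13* was called in 5 of 11 and lost the call without TACI-Ig replicate 1, 3 or 5 or NZM2410 replicate 1, 2 or 4 (limma adjusted p from 0.0614 to 0.0851, differences from -1.09 to -0.55). *Ltb* was called without TACI-Ig replicate 2 (-0.96, limma adjusted p = 0.00797). Dim genes as a whole were lower in NZM2410: among the dimmest 5260 of the 15780 genes, which include *Ms4a1*, *Glycam1*, *Cxcr5* and *Ccr7*, the median difference was -0.32 and 58.4% of genes were called lower, and among the middle 5260, which include the other 3, 22.8% were. After the arrays were quantile normalized again, *Cxcr5* was at -0.05 (limma adjusted p = 0.723), *Ccr7* at -0.22 (limma adjusted p = 0.0884) and *Cd79b* at -0.98 (limma adjusted p = 0.0539), none of them called, and *Ms4a1* and *Glycam1* kept their calls (-1.07 with limma adjusted p = 0.021 and -1.35 with limma adjusted p = 0.00432).

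**Figure D5:**
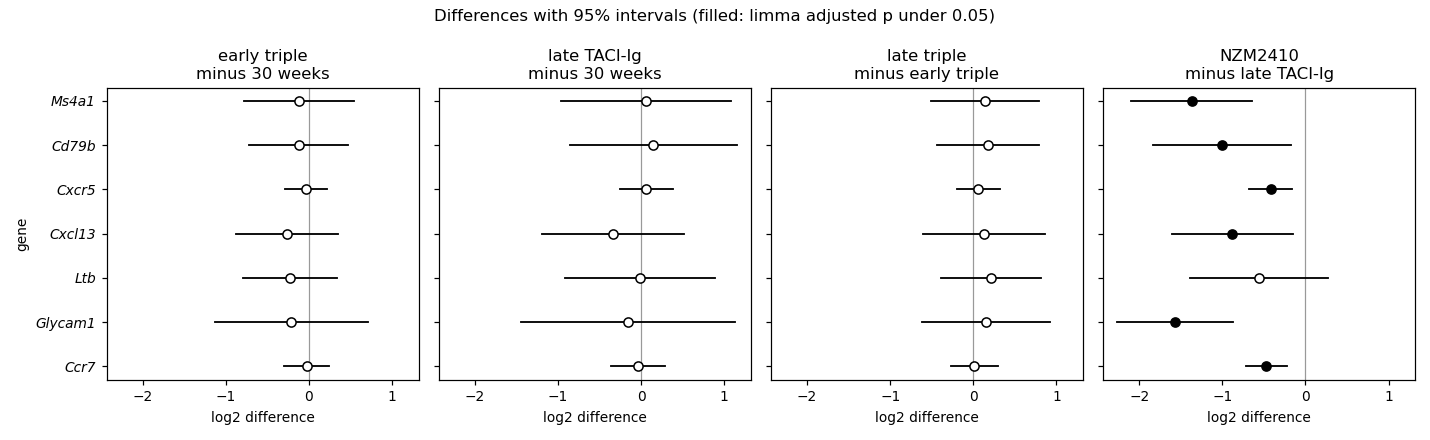
Log2 difference of each of the 7 genes (rows) in the 4 comparisons (panels), with 95% intervals; filled points have a limma adjusted p under 0.05. The intervals include 0 in the first 3 panels, and in the last panel 6 points are filled, from -0.42 for *Cxcr5* to -1.57 for *Glycam1*.

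Other genes of the same cells and pathways behaved as follows in NZM2410 kidneys, against the same background of 30.9% lower and 28.6% higher. This background depends on brightness. Among the dimmest 5260 genes, which include *Pou2af1*, *Blk*, *Fcrla* and *Fcer2a*, 58.4% were called lower and 13.7% higher. No list was tested against genes of like brightness. Of 17 other B cell genes 12 were lower and none higher (median -0.75), led by *Pou2af1* (-2.64), *Fcmr* (-1.67), *Blk* (-1.19), *Fcrla* (-1.05), a B cell Fc receptor-like gene, and *Tnfrsf13c* (-1.004), the receptor for BAFF. Of 9 plasma cell genes 6 were lower and 1 higher, with *Jchain*, the joining chain of IgA and IgM, lower by the most (-4.22, limma adjusted p = 7.1e-06), and *Xbp1*, a secretory factor that the kidney expresses too, higher (0.83). Of 12 T cell genes 8 were lower and 1 higher (median -0.50), with *Cd3e* at -1.05. The next by size, *Cd27* (-0.88), *Cd8b1* (-0.66), *Il7r* (-0.66) and *Cd28* (-0.62), were dimmer. Their means in TACI-Ig kidneys were 4.93 to 5.46, beside 8.27 for *Cd3e*, so the limit on brightness given above applies to them. Of 10 macrophage genes none was called in either direction (median -0.20), with differences from -0.42 to 0.24.

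Of 10 other lymphoid chemokine and receptor genes 3 were lower and none higher (*Ccr6* -1.09, *Cxcr4* -0.81, *Ccl20* -0.67), and of 11 lymphotoxin and noncanonical NF-κB genes 4 were lower and 1 higher, with *Tnf* at -0.80 and *Traf2*, an adaptor of the pathway, at 0.35. Of 12 high endothelial and homing genes 5 were lower and none higher, among them *Chst4* (-0.93, limma adjusted p = 5.84e-07) and *Fut7* (-0.66, limma adjusted p = 2.57e-05), both among the dimmest 5260. The mammary gland list had 4 of 6 genes lower and 1 higher (median -0.35), and the kidney markers had 7 of 9 higher (median 0.53). Of 5 adipose tissue genes 4 were lower and none higher (median -0.89), from *Adipoq*, adiponectin, at -2.48 to *Fabp4*, a fatty acid binding protein, at -0.79. Of 10 lymphoid stroma and follicular dendritic cell genes 4 were lower and 2 higher, with *Fcer2a*, the IgE receptor CD23, at -0.77, *Pdpn*, podoplanin, at -0.76 and *Fcgr2b*, the inhibitory IgG receptor, at 0.29. Of 7 adrenal cortex genes 2 were lower and 1 higher. The part of these tissues in the differences of the 7 genes was not tested. No gene of these lists was called in the other 3 comparisons. The adrenal cortex list still had a median difference of -0.97 in early remission against 30 weeks. For TACI-Ig against 30 weeks its median was -3.07. *Pou2af1* stands in both the B cell and the plasma cell list.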

How the data were processed

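Total RNA from 32 kidneys, 1 per Affymetrix array, was measured in 5 groups taken from the labels. The authors deposited log2 values of all arrays processed together by RMA, with a batch correction whose batches the labels do not name. The kidneys had been perfused with saline. Of 16539 probe sets, 64 array controls and 695 without a name in the platform table were left out, and 15780 named genes remained. Differences were fitted per comparison with limma 3.58.1 (lmFit, eBayes) in R 4.3.3 and adjusted by the Benjamini-Hochberg method over all 15780 genes at 0.05. Correlations used numpy 2.4.6, scipy 1.17.1 and pandas 2.3.3 in Python 3.11.15, with 100000 permutations within groups. Their adjustment over all genes instead of over the pairs was chosen after seeing the data. The scripts were tested on simulated data. The labels do not say whether kidneys came from separate cohorts, and p-values measure the spread between these samples. The number of arrays limits the precision.

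The 9 genes and all lists were chosen with earlier results of these data known. Named beside the 9 are at most 5 called genes per list and comparison with the largest differences, a fixed set of gene pairs, and the 3 genes most like each. Alternatives were a joint fit, another quantile normalization, median centring, the dimmest 5260 genes left out, an intensity trend with a robust prior, array weights, a replicate block, mice of 1 name code alone, and each kidney left out.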

Additional observations from a re-analysis of the deposited data

Results flagged for a closer look

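In 30-week replicate 2, Dixon's test at the 95% level set 6 of the 7 genes apart from the other 6 kidneys. The levels were 7.81 for *Ms4a1*, 8.37 for *Cd79b*, 5.38 for *Cxcr5*, 7.84 for *Ltb*, 9.28 for *Glycam1* and 6.08 for *Ccr7*. In NZM2410 kidneys, replicate 6 stood apart in *Ms4a1* at 4.85 and replicate 3 in *Ltb* at 6.66. These are 8 of 35 groups of values tested, and chance sets about 1 in 20 apart, but the 7 genes vary together and are not independent tests.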

How the results depend on the processing

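No gene of the 7 was called in the first 3 comparisons under any alternative run. In early remission against 30 weeks the number of called genes was 3 in the joint fit, 123 with array weights and 0 to 12 with 1 kidney left out, against 0. For TACI-Ig against 30 weeks it was 0 to 1309 with 1 kidney left out. In late against early remission it was 1 in the joint fit, 0 after quantile normalization, 7 with the trend and robust prior, 65 with array weights and 0 to 32 with 1 kidney left out, against 11. In NZM2410 it was 5368 of 10520 with the dimmest genes left out, against 9388, and median centring gave 3563 higher and 5613 lower, against 4513 and 4875. There, *Cd79b* (limma adjusted p = 0.0666) and *Cxcl13* (0.0647) lost their calls with the trend and robust prior, and *Cxcl13* in the joint fit (0.0629). Small uncalled differences changed sign. With array weights, early remission against 30 weeks was 0.0581 for *Ms4a1*, 0.0266 for *Cxcr5* and 0.0293 for *Glycam1*, and TACI-Ig against 30 weeks was 0.28 for *Ltb*, 0.23 for *Glycam1* and 0.0539 for *Ccr7*. *Ccr7* in late against early remission was -0.0014 after quantile normalization and -0.0095 after centring. With 1 kidney left out, early remission against 30 weeks ran from -0.25 to 0.22 for *Ms4a1*, -0.22 to 0.17 for *Cd79b*, -0.0879 to 0.0686 for *Cxcr5*, -0.35 to 0.0125 for *Ltb*, -0.39 to 0.26 for *Glycam1* and -0.0828 to 0.0889 for *Ccr7*. TACI-Ig against 30 weeks ran from -0.17 to 0.40 for *Ms4a1*, -0.17 to 0.47 for *Cd79b*, -0.00855 to 0.166 for *Cxcr5*, -0.25 to 0.39 for *Ltb*, -0.40 to 0.31 for *Glycam1* and -0.0897 to 0.0821 for *Ccr7*. Late against early remission ran from -0.0611 to 0.50 for *Ms4a1*, -0.00516 to 0.132 for *Cxcr5*, -0.13 to 0.47 for *Cxcl13*, -0.17 to 0.53 for *Glycam1* and -0.0658 to 0.0948 for *Ccr7*. Of the correlations, 19 of 21 passed without the late triple therapy kidneys (*Cxcr5* with *Cxcl13*, r = 0.65, and with *Ltb*, r = 0.70, did not), 7 of 21 without the 2 farthest kidneys and 0 within 30 weeks, early remission, late triple therapy or NZM2410 alone. *Cxcr5* with *Ltb* was -0.0447 within early remission. Within NZM2410, *Glycam1* was at -0.0560 with *Ms4a1*, -0.56 with *Cd79b*, -0.18 with *Cxcl13*, -0.10 with *Ltb* and -0.31 with *Ccr7*, and *Cxcr5* at -0.17 with *Cxcl13*, -0.43 with *Ltb* and -0.23 with *Ccr7*. The causes were not tested.

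Replicate numbers were not taken to pair the samples. Same-numbered kidneys deviated together (r over 0.1) in 3 of 7, 0 of 5, 0 of 3 and 1 of 5 pairs in the 4 comparisons. The highest r was 0.33, in early remission against 30 weeks, and these values cannot settle whether the samples are paired. With the replicate number as a block, the called genes were 0, 1, 1 and 8314, *Ms4a1* in TACI-Ig against 30 weeks was -0.0065, and no call of the 7 genes changed.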
